A study of Saccharomyces cerevisiae with 4 samples.

Results

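The MPA + Guanine library was set against the DMSO library to measure how far mRNA levels of cells given mycophenolic acid (MPA) and guanine together lay from those of control cells. The comparison held 501 of the 844 deposited cells, 268 labelled MPA + Guanine and 233 labelled DMSO, chosen by these labels alone, and no cell barcode was shared between libraries. All cells were haploid BY4741 yeast (MATa his3Δ1 leu2Δ0 met15Δ0 ura3Δ0), a laboratory strain, in CSM minimal medium with 2% glucose for 18 h. The MPA + Guanine medium contained 10 µM MPA, 10 µM guanine and 10 µM DMSO, and the DMSO medium contained 10 µM DMSO alone. The other libraries were used as points of comparison, namely MPA (10 µM MPA and 10 µM DMSO, 85 cells) and Guanine (10 µM guanine without DMSO, 258 cells). In yeastDrop-Seq, single cells are lysed in droplets with barcoded beads, and unique molecular identifiers (UMIs) count captured mRNA molecules. Each condition was 1 library, so no difference between conditions has a replicate check and no p-value is given. The 95% intervals cover counting error only, and all ratios over DMSO share the same DMSO library. IMD2, known for its induction by MPA, had 91 UMIs in the library labelled MPA + Guanine and 3 in the library labelled MPA, which is not the order that these labels would give. Whether the labels are right was not tested, and every value of MPA + Guanine and of MPA below rests on them.

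MPA blocks IMP dehydrogenase, the enzyme that commits the purine precursor IMP to guanine nucleotides. Budding yeast can also make GMP from guanine, through the hypoxanthine-guanine phosphoribosyltransferase Hpt1, and this salvage route does not pass through the blocked step. GTP is needed for transcription, for translation factors that are GTPases and for ribosome assembly, and ribosome production is a large part of the mRNA of a growing yeast cell.

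The MPA + Guanine library held 279806 UMIs with a median of 957 per cell, and the DMSO library held 311199 UMIs with a median of 1250 per cell. UMIs were summed per gene over the cells of a library and scaled to CPM (counts per total of 1000000). Of 4777 genes, 2966 had UMIs in both libraries, and the 2048 of these with at least 50 UMIs in the 2 libraries together were compared. No gene with UMIs in a library lacked a cell there with 2 or more of them, so a gene listed at 0 may have been filtered out and is given no ratio. The labelled mating type was checked with its markers. All 7 MATa-specific genes were in the matrix, and summed to 1698 CPM in MPA + Guanine cells and 1620 CPM in DMSO cells. Of 4 MATalpha-specific genes only SAG1 (the alpha-agglutinin) was in the matrix, listed at 0 in MPA + Guanine cells and with 6 cells carrying a UMI in DMSO. Of the 4 genes mutated in BY4741 only HIS3, whose his3Δ1 allele is a partial deletion, was in the matrix, at 379 CPM in MPA + Guanine cells and 247 CPM in DMSO cells.

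Most genes of MPA + Guanine cells lay near their DMSO level, with a broad shift in both directions around it. Heat shock, stress, iron, sulfur and redox genes held the highest ratios, and ribosomal protein genes held most of the low ones. Of the 2048 genes, 1264 (61.7%) lay within 1.5-fold of DMSO. At least 2-fold higher CPM was found for 192 genes (9.38%) and at least 2-fold lower CPM for 59 genes (2.88%), which is a rule of size and not of significance. By sign alone 66% of genes were higher and 34% lower, and the counting interval lay wholly above 0 for 562 genes (27.4%) and wholly below 0 for 270 (13.2%). The median log2 ratio of all genes was 0.25 rather than 0, since ribosomal protein genes took a smaller share of the UMIs in MPA + Guanine cells. With TMM scaling, which sets aside such a shift in composition, the median was -0.030, and 94 genes were at least 2-fold higher against 177 at least 2-fold lower. List medians below are on the CPM scale and are to be read against the 0.25 of all genes.

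**Figure D1:**
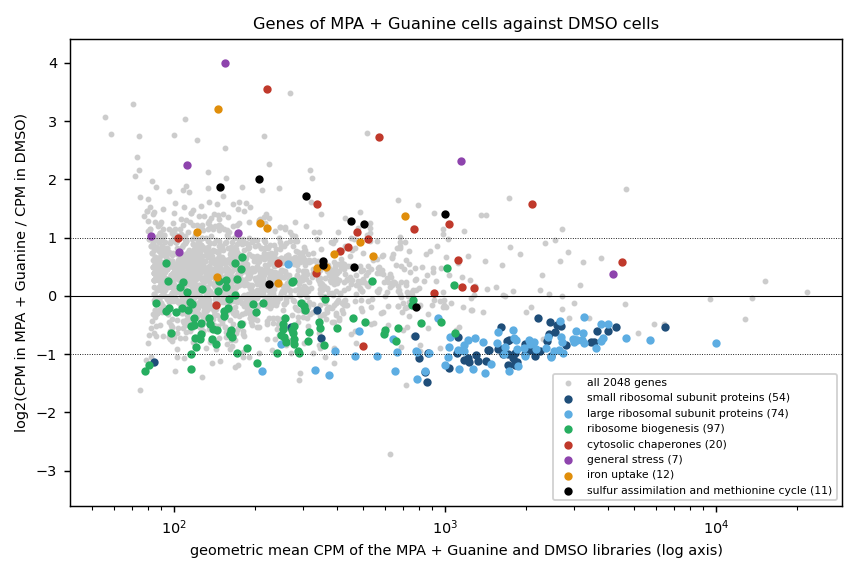
Each point is 1 of the 2048 genes, with its log2 ratio of CPM in MPA + Guanine over DMSO on the y axis and the geometric mean of its CPM in both libraries on a logarithmic x axis; the dotted lines mark 2-fold. Ribosomal protein genes form a band of lower values at high CPM with medians of -0.93 and -0.84, and chaperone, stress, iron and sulfur genes reach up to 3.99.

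Ribosomal protein genes were lower in MPA + Guanine cells almost without exception. The proteins of both subunits form the core of the ribosome and their mRNAs are among the most abundant in growing yeast. Together they took 18.9% of the UMIs in MPA + Guanine cells (95% exact binomial interval 18.7 to 19.0), 30.5% in MPA cells, 36.2% in Guanine cells and 33.2% in DMSO cells (33.1 to 33.4). Of 136 genes in the matrix 128 passed the count rule, and 127 of these were lower than in DMSO and 36 at least 2-fold lower. The share of all genes that was lower at all was 34%, and the share at least 2-fold lower was 2.88%. Per cell, the median share of UMIs on these genes was 18.3% in MPA + Guanine cells, with 10th and 90th percentiles of 7.99% and 30.7%, and 34.1% in DMSO cells, with 23.6% and 42.8%.

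**Figure D2:**
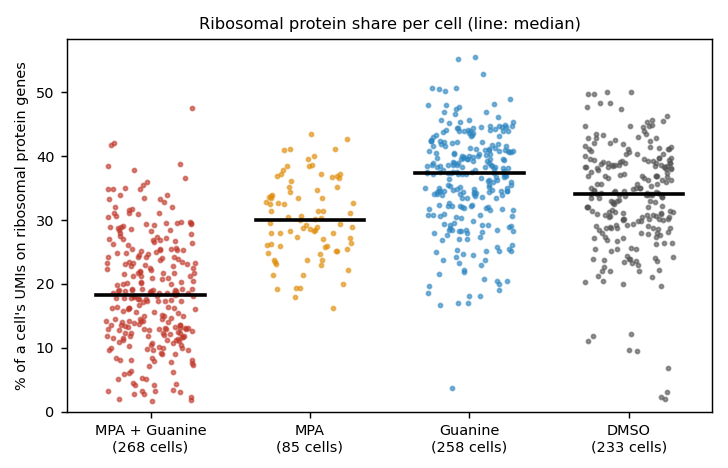
Each point is 1 cell, with the percentage of its UMIs that fell on ribosomal protein genes on the y axis and the condition on the x axis, and black lines mark medians. MPA + Guanine cells center on 18.3%, below the medians of 30.0% in MPA, 37.3% in Guanine and 34.1% in DMSO cells, with overlap between single cells.

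The small subunit genes had a median log2 ratio of -0.93, and all 54 that passed were lower. Their most abundant mRNA was RPS31, a fusion of ubiquitin with a small subunit protein, at 5400.2 CPM in MPA + Guanine cells, 8775 CPM in MPA cells, 7787 CPM in Guanine cells and 7815 CPM in DMSO cells. RPS19A, needed for assembly of the small subunit, was the lowest, at 515 CPM in MPA + Guanine cells and 1443 CPM in DMSO cells (log2 ratio -1.49, 95% interval -1.77 to -1.21). Its MPA level, 788 CPM, lay between these values, and its Guanine level, 1910 CPM, above both. The large subunit genes had a median of -0.84, with 73 of 74 lower. RPL41A, which encodes a very short protein, had 7523 CPM in MPA + Guanine cells, 5701 CPM in MPA cells and 13226 CPM in DMSO cells. RPL12A had 482 CPM in MPA + Guanine cells and 1292 CPM in DMSO cells, the lowest ratio of the list at -1.42 (-1.71 to -1.14). RPL15B was the exception, with 318 CPM in MPA + Guanine cells and 219 CPM in DMSO cells (0.54, 0.07 to 1.02), and its sign turned when every cell was thinned to 400 UMIs (-0.36). Many of these genes have a near-identical copy (at least 90% identity over 50% of the coding length for 23 small and 30 large subunit genes), so single members are uncertain while the summed share is not affected by a split between copies. Over the members with UMIs in MPA cells the small subunit medians were -0.92 in MPA + Guanine and -0.24 in MPA, and the large subunit medians -0.84 in MPA + Guanine and -0.086 in MPA.

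Genes that build the ribosome, as opposed to forming it, lay on opposite sides of DMSO in MPA + Guanine and in MPA cells. The ribosome biogenesis list holds nucleolar processing and assembly factors. Of its 133 genes 97 passed, 77 were lower than in DMSO, against 34% of all genes, and 4 at least 2-fold lower, near the 2.88% of all genes, with a median of -0.46. Over the 95 members that also had UMIs in MPA cells the medians were -0.47 for MPA + Guanine and 0.62 for MPA, and in Guanine cells the median over 88 members was -0.58. In summed CPM the list held 24077 in MPA + Guanine cells, 48605 in MPA cells, 20732 in Guanine cells and 30877 in DMSO cells. NHP2, a component of H/ACA snoRNPs that guide pseudouridylation of rRNA, had 876 CPM in MPA + Guanine cells, 1780.4 CPM in MPA cells and 1356 CPM in DMSO cells. FPR3, a nucleolar proline isomerase, had 1151 CPM in MPA + Guanine cells, 1965 CPM in MPA cells and 1012 CPM in DMSO cells. Not all members followed the median. ESF1, a factor of small subunit processing, had 1204 CPM in MPA + Guanine cells and 868 CPM in DMSO cells (0.47, 0.24 to 0.71). The lowest ratio was that of NOG2, a GTPase of the large subunit precursor, with 50.03 CPM in MPA + Guanine cells, 146 CPM in MPA cells and 122 CPM in DMSO cells (-1.29, -2.29 to -0.37).

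Promoters of this list share the PAC motif, so that of NOG2 is shown. The window covers the 300 bases that end 100 bases before the start codon, to leave out most transcribed sequence, and was read from RefSeq assembly R64. For NOG2 it is chrXIV:723213-723512 on the minus strand, with the motif GATGAG (searched on both strands) in capitals, here on the opposite strand and starting 181 bases before the start codon.
NOG2: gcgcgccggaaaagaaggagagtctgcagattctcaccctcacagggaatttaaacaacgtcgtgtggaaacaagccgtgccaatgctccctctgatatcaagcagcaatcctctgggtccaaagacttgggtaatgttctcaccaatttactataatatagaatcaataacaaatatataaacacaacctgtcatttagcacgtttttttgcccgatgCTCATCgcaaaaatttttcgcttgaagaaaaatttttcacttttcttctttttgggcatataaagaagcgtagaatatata
The motif was present in 70.1% of the promoters of the 97 biogenesis genes, in 20.5% of the 2010 promoters of the compared genes and in 18.4% of 6026 promoters of the genome. A second motif, AAAATTT (RRPE), was present in 87.6% of the biogenesis promoters, against 29.1% of those compared. A match of letters is a description of the sequence and does not show that a factor was bound.

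Other parts of the translation machinery also had lower medians in MPA + Guanine than in MPA. RNA polymerases I and III, which transcribe rRNA and tRNA, had 8 members that passed and all were lower than in DMSO (34% of all genes). Their median was -0.46 in MPA + Guanine and 0.19 in MPA, which with TMM scaling was -0.75 in MPA + Guanine and -0.016 in MPA. RPA34, a subunit of RNA polymerase I, had 275 CPM in MPA + Guanine cells, 603 CPM in MPA cells and 431 CPM in DMSO cells. The aminoacyl-tRNA synthetases, which charge tRNAs with amino acids, came closest to DMSO, with 17 of 19 within 1.5-fold (61.7% of all genes). Their median was -0.12 in MPA + Guanine against 0.58 in MPA over 18 members. SES1, which charges serine tRNA, had 1011 CPM in MPA + Guanine cells, 1673 CPM in MPA cells and 1105 CPM in DMSO cells. Translation initiation factors had medians of -0.32 in MPA + Guanine and 0.45 in MPA over 18 members. FUN12, the GTPase eIF5B, had 2441 CPM in MPA + Guanine cells, 4835 CPM in MPA cells and 2388 CPM in DMSO cells. SUI1 (eIF1), which takes part in start codon choice, was the only initiation factor at least 2-fold lower, with 261 CPM in MPA + Guanine cells and 582 CPM in DMSO cells. Elongation factors had a median of -0.30 in MPA + Guanine and 0.020 in MPA, at the DMSO level, and TEF4, a subunit of the exchange factor eEF1B, had 700.5 CPM in MPA + Guanine cells and 1305 CPM in DMSO cells (-0.90, -1.15 to -0.65).

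In the pathway that MPA targets, IMD3 and IMD4 of MPA + Guanine cells lay above their DMSO level and GUA1 below it, while 6 of the 9 genes that passed were within 1.5-fold, a share near the 61.7% of all genes. Yeast has the IMP dehydrogenase genes IMD2, IMD3 and IMD4, of which IMD2 is known for its induction when GTP is scarce and for an enzyme form that resists MPA. IMD2 had 91 UMIs in 67 of 268 MPA + Guanine cells (325 CPM, 95% Poisson interval 262 to 399), 3 UMIs in 2 of 85 MPA cells (29.2 CPM), and was listed at 0 in Guanine and DMSO cells. No cell held more than 4 of its 91 UMIs. IMD3 had 275 CPM in MPA + Guanine cells, 175 CPM in MPA cells and 141 CPM in DMSO cells, and was listed at 0 in Guanine cells (log2 ratio of MPA + Guanine over DMSO 0.96, 0.41 to 1.53). IMD4 had 418 CPM in MPA + Guanine cells, 496 CPM in MPA cells, 152 CPM in Guanine cells and 276 CPM in DMSO cells (0.60, 0.18 to 1.02). The DMSO value of IMD2 may have been filtered out, so only IMD3 and IMD4 have a ratio. GUA1, the GMP synthetase that acts directly after IMP dehydrogenase, went the other way, with 111 CPM in MPA + Guanine cells, 233 CPM in MPA cells, 254 CPM in Guanine cells and 257 CPM in DMSO cells (-1.21, -1.86 to -0.60).

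The salvage genes differed less. HPT1, which makes GMP from guanine, had 122 CPM in MPA + Guanine cells, 136 CPM in MPA cells, 120 CPM in Guanine cells and 106 CPM in DMSO cells, and all intervals overlapped. XPT1, which does the same for xanthine, had 139 CPM in MPA + Guanine cells and 125 CPM in DMSO cells. GUK1, the guanylate kinase that makes GDP, had 382 CPM in MPA + Guanine cells and 415 CPM in DMSO cells, and YNK1, the nucleoside diphosphate kinase, had 125 CPM in MPA + Guanine cells and 116 CPM in DMSO cells. These values did not differ beyond their counting intervals. The purine and cytosine permease FCY2 had 129 CPM in MPA + Guanine cells, 309 CPM in Guanine cells and 186 CPM in DMSO cells, the ratio of MPA + Guanine over DMSO being -0.53 (-1.18 to 0.09). PNP1 (purine nucleoside phosphorylase) had 67.9 CPM in MPA + Guanine cells and 93.2 CPM in DMSO cells, ISN1 (IMP-specific nucleotidase) had 78.6 CPM in MPA + Guanine cells and 77.1 CPM in DMSO cells, and AMD1 (AMP deaminase) had 104 CPM in MPA + Guanine cells and 86.8 CPM in DMSO cells. AAH1, the adenine deaminase, was listed at 0 in MPA + Guanine cells, with 272 CPM in MPA cells and 122 CPM in DMSO cells. Of 16 genes in the list 13 were in the matrix and 9 passed, with 1 at least 2-fold lower, and the list summed to 2277 CPM in MPA + Guanine cells and 2002 CPM in DMSO cells. The median of the 9 was 0.15 with CPM and -0.13 with TMM scaling.

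**Figure D3:**
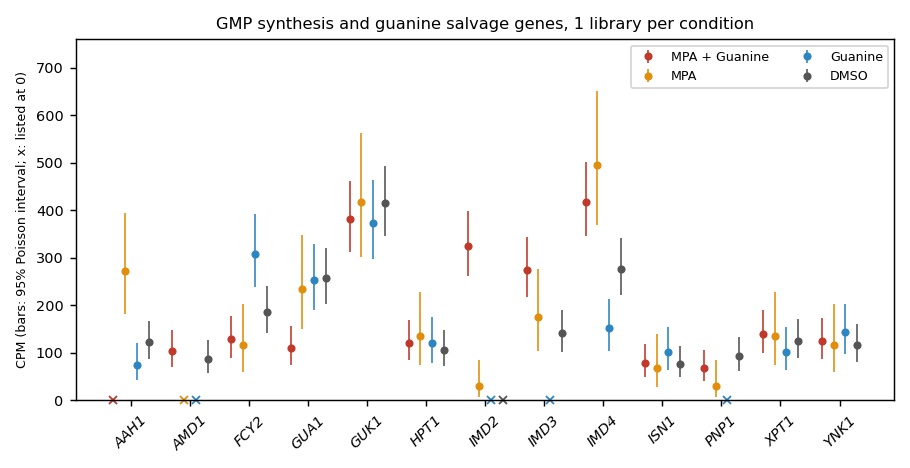
CPM of the 13 GMP synthesis and guanine salvage genes in the matrix on the y axis, 1 library per condition, with exact 95% Poisson intervals; crosses mark genes listed at 0. IMD2 at 325 CPM stands out in MPA + Guanine, GUA1 lies at 111 CPM there against 257 CPM in DMSO, and HPT1 is alike in the 4 libraries.

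De novo purine synthesis, which supplies IMP, stood at the DMSO level in sum. The list held 1551 CPM in MPA + Guanine cells, 837 CPM in MPA cells, 1914 CPM in Guanine cells and 1523 CPM in DMSO cells. The log2 ratio of these sums over DMSO was 0.026 (-0.16 to 0.22) in MPA + Guanine and -0.86 (-1.21 to -0.53) in MPA. The sums count genes listed at 0 as 0, and only 5 of the 9 genes that passed had UMIs in MPA cells. Over these 5 the medians were 0.18 in MPA + Guanine and -0.18 in MPA, so the MPA sum depends on how genes listed at 0 are read. ADE8, a glycinamide ribotide transformylase, had 193 CPM in MPA + Guanine cells, 117 CPM in MPA cells and 170.3 CPM in DMSO cells. PRS1, one of the PRPP synthetases, was lower, at 118 CPM in MPA + Guanine cells against 222 CPM in DMSO cells (-0.91, -1.56 to -0.29). The one-carbon and glycine cleavage genes, which feed purine synthesis, were on opposite sides of DMSO in MPA + Guanine (1458 CPM) and MPA (438 CPM), with 1070.0 CPM in DMSO cells. These sums also count genes listed at 0 as 0. Over the 4 of 6 genes with UMIs in MPA cells the medians were 0.61 in MPA + Guanine and -0.75 in MPA. SHM2, the cytosolic serine hydroxymethyltransferase, had 314 CPM in MPA + Guanine cells, 107 CPM in MPA cells, 258 CPM in Guanine cells and 180 CPM in DMSO cells. GCV1, of the glycine cleavage complex, had 164 CPM in MPA + Guanine cells, 29.2 CPM in MPA cells and 61.1 CPM in DMSO cells (1.43, 0.63 to 2.28), resting on 46 UMIs in MPA + Guanine cells and 19 in DMSO cells.

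Pyrimidine synthesis was lower than in DMSO in all 5 genes that passed (34% of all genes), with a median of -0.57 in MPA + Guanine and -0.0027 in MPA. URA1 (dihydroorotate dehydrogenase) had 586 CPM in MPA + Guanine cells, 1236 CPM in MPA cells and 1125 CPM in DMSO cells. The CTP synthetases did not move alike, URA7 being at 75.1 CPM in MPA + Guanine cells and 157 CPM in DMSO cells, and URA8 at 525 CPM in MPA + Guanine cells and 643 CPM in DMSO cells. Amino acid biosynthesis had 29 of 45 genes within 1.5-fold of DMSO, near the 61.7% of all genes, and a median of 0.12, which was -0.16 with TMM scaling, while in Guanine cells the median of the same 45 genes was 1.0. ILV5, of branched-chain amino acid synthesis, had 868 CPM in MPA + Guanine cells, 3566 CPM in Guanine cells and 1594 CPM in DMSO cells. Within this list the nitrogen assimilation genes held the lowest ratios. GDH1, the NADP-dependent glutamate dehydrogenase, had 425 CPM in MPA + Guanine cells, 486 CPM in MPA cells, 973 CPM in Guanine cells and 1224 CPM in DMSO cells (-1.53, -1.83 to -1.22). GLN1, glutamine synthetase, had 186 CPM in MPA + Guanine cells, 438 CPM in MPA cells and 463 CPM in DMSO cells. SER33, which starts serine synthesis from a glycolytic intermediate, was highest at 340 CPM in MPA + Guanine cells and 93.2 CPM in DMSO cells (1.87, 1.25 to 2.52).

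Cytosolic chaperones were about as far above DMSO in MPA + Guanine cells as in MPA cells. These proteins fold nascent and damaged proteins, and the heat shock factor Hsf1 drives many of their genes. Of 20 genes that passed, 18 were higher than in DMSO and 7 at least 2-fold higher (66% and 9.38% of all genes compared), with a median of 0.84 in MPA + Guanine and 0.72 in MPA over 19 members and -0.69 in Guanine over 20. The list summed to 23695 CPM in MPA + Guanine cells, 22308 CPM in MPA cells, 8534 CPM in Guanine cells and 13519 CPM in DMSO cells. HSP82, an inducible Hsp90, had 3631 CPM in MPA + Guanine cells, 2773 CPM in MPA cells and 1211 CPM in DMSO cells, and its near-identical partner HSC82 had 5536 CPM in MPA + Guanine cells, 6022 CPM in MPA cells and 3692 CPM in DMSO cells, so reads could have been shared between them. SSA4, the inducible Hsp70, had 754 CPM in MPA + Guanine cells, 243 CPM in MPA cells, 23.1 CPM in Guanine cells and 64.3 CPM in DMSO cells (3.55, 2.89 to 4.29). HSP42, a small heat shock protein that gathers misfolded proteins into deposits, had 1469 CPM in MPA + Guanine cells, 876 CPM in MPA cells and 222 CPM in DMSO cells. SSB2, a ribosome-bound Hsp70 that aids nascent chains, was lower than in DMSO, with 372 CPM in MPA + Guanine cells and 675 CPM in DMSO cells (-0.86, -1.21 to -0.51). The TRiC chaperonin, which folds actin and tubulin, had 6 of 7 members within 1.5-fold (61.7% of all genes) and a median of -0.022.

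The promoter of SSA4, the chaperone gene with the highest ratio, is shown with its heat shock element in capitals (GAANNTTC or TTCNNGAA, both strands). The window is chrV:364189-364488 on the plus strand and the match starts 253 bases before the start codon.
SSA4: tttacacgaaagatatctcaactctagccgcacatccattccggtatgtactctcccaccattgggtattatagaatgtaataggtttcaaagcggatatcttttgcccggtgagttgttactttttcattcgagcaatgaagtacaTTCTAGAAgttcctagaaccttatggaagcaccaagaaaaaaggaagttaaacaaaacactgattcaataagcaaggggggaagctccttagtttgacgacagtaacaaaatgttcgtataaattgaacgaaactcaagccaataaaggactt
This short form of the element was found in 15 of the 20 chaperone promoters (75%), and in 24.2% of the promoters of compared genes and 23.6% of all promoters. Over the compared genes it was in 27.5% of the promoters of genes at least 2-fold higher and 29.3% of those at least 2-fold lower.

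Proteasome subunits, which degrade ubiquitin-tagged proteins, were higher than in DMSO in 30 of 32 genes, none by 2-fold (66% and 9.38% of all genes). Their median was 0.39 in MPA + Guanine, 0.21 in MPA and -0.31 in Guanine. With TMM scaling these medians were 0.11 in MPA + Guanine, 0.0056 in MPA and -0.37 in Guanine. RPN2, a scaffold of the regulatory particle, had 1251 CPM in MPA + Guanine cells, 1362 CPM in MPA cells, 254 CPM in Guanine cells and 694 CPM in DMSO cells. The list's margin over the median of all genes was smaller than that of the chaperones.

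General stress genes, which the factors Msn2 and Msn4 induce under many stresses, were in sum higher in MPA + Guanine cells (9178 CPM) than in MPA (2354 CPM), Guanine (5310 CPM) or DMSO cells (4611 CPM). Of 22 genes 17 were in the matrix and 7 passed, all 7 were higher than in DMSO and 5 at least 2-fold higher (66% and 9.38% of all genes), with a median of 1.07. The sums count genes listed at 0 as 0, and only 3 of the 7 had UMIs in MPA cells. Over these 3 the medians were 2.31 in MPA + Guanine and -0.023 in MPA. HSP12, a membrane-binding stress protein, held the highest ratio of all named genes, with 172 UMIs in 47 MPA + Guanine cells (615 CPM), 77.8 CPM in MPA cells, 106 CPM in Guanine cells and 12 UMIs in 7 DMSO cells (38.6 CPM). Its log2 ratio was 3.99 (3.15 to 4.98). TMA10, a ribosome-associated protein of unclear function, had 2552 CPM in MPA + Guanine cells, 506 CPM in MPA cells, 683 CPM in Guanine cells and 514 CPM in DMSO cells (2.31, 2.06 to 2.57). HOR7, a small protein induced by osmotic stress, had 4775 CPM in MPA + Guanine cells, 1703 CPM in MPA cells and 3676 CPM in DMSO cells. The MPA level of HOR7 was below DMSO, and that of TMA10 was at DMSO.

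The promoter of HSP12 carries 3 stress response elements (AGGGG, both strands), in capitals here in the window chrVI:106856-107155 on the plus strand, starting 377, 232 and 190 bases before the start codon.
HSP12: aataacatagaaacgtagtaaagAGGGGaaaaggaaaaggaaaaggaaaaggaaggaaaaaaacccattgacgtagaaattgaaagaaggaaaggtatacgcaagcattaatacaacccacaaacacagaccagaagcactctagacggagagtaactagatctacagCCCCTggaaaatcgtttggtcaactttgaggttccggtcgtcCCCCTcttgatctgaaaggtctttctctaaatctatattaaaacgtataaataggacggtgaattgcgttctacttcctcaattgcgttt
All 7 general stress genes that passed had the motif in this window. It was present in 39.7% of the 189 promoters of genes at least 2-fold higher in MPA + Guanine cells, in 12.1% of the 58 promoters of genes at least 2-fold lower, and in 24.8% of the promoters of all compared genes, given as a description without a test.

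Sulfur assimilation and the methionine cycle were higher in MPA + Guanine cells in 10 of 11 genes that passed, 6 of them at least 2-fold (66% and 9.38% of all genes), with a median of 1.23, against 0.26 in MPA and 0.24 in Guanine. BY4741 carries met15Δ0, which prevents it from using inorganic sulfate for methionine. MET10, a subunit of sulfite reductase, had 415 CPM in MPA + Guanine cells, 272 CPM in MPA cells, 212 CPM in Guanine cells and 103 CPM in DMSO cells (2.01, 1.44 to 2.62). CYS3, cystathionine gamma-lyase of cysteine synthesis, had 1630 CPM in MPA + Guanine cells, 1236 CPM in MPA cells, 618 CPM in Guanine cells and 614 CPM in DMSO cells. MET6, methionine synthase, had 768 CPM in MPA + Guanine cells, 243 CPM in MPA cells and 328 CPM in DMSO cells. SAH1, which recycles S-adenosylhomocysteine, was the member below DMSO, with 729 CPM in MPA + Guanine cells and 835 CPM in DMSO cells. YCT1, a cysteine transporter outside the list, had 558 CPM in MPA + Guanine cells, 156 CPM in MPA cells and 83.5 CPM in DMSO cells (2.74, 2.13 to 3.40).

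The promoter of MET10 carries 2 copies of the Cbf1 motif CACGTG, which reads the same on both strands, in the window chrVI:212912-213211 on the plus strand, 249 and 231 bases before the start codon. Cbf1 is a regulator of the sulfur genes.
MET10: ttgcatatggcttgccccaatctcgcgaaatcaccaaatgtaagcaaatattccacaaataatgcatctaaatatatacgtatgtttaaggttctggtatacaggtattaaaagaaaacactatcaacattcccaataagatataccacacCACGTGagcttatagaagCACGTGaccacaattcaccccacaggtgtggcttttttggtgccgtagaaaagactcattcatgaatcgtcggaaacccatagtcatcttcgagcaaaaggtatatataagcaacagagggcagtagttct
The motif was found in 7 of the 11 sulfur promoters (63.6%), in 6.22% of the promoters of compared genes and in 4.53% of all promoters.

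Iron uptake genes, targets of the iron regulator Aft1, were higher than in DMSO in all 12 that passed, 5 of them at least 2-fold (66% and 9.38% of all genes), with a median of 0.82. Over the 10 members with UMIs in MPA cells the medians were 0.70 in MPA + Guanine and -0.19 in MPA, and in Guanine cells the median over 12 members was 0.75. FIT3, a cell wall mannoprotein that retains siderophore iron, had 443 CPM in MPA + Guanine cells, 217 CPM in Guanine cells and 48.2 CPM in DMSO cells, and was listed at 0 in MPA cells. FIT2, of the same family, had 1147 CPM in MPA + Guanine cells, 175 CPM in MPA cells, 729 CPM in Guanine cells and 443 CPM in DMSO cells (1.37, 1.08 to 1.67). FTR1, the high-affinity iron permease, had 690 CPM in MPA + Guanine cells, 350.2 CPM in MPA cells, 374 CPM in Guanine cells and 427 CPM in DMSO cells. The order of the libraries thus differed between members, MPA + Guanine being the highest in each of these genes.

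FIT3 has 3 copies of the Aft1 core CACCC (both strands) in the window chrXV:1061156-1061455 on the minus strand, 283, 267 and 184 bases before the start codon.
FIT3: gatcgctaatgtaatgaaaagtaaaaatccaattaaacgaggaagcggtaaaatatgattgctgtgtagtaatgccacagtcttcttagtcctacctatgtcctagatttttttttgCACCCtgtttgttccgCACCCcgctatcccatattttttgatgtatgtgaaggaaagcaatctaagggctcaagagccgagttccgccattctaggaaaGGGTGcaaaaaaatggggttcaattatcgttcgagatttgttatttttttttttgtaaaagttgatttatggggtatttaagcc
The core was found in 11 of the 12 iron promoters (91.7%), in 25.8% of the promoters of compared genes and in 23.5% of all promoters, and in 34.4% of the promoters of genes at least 2-fold higher and 36.2% of those at least 2-fold lower. So short a motif is common in any promoter.

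Redox and drug efflux genes were above DMSO in MPA + Guanine and in Guanine cells. FRM2 and HBN1 encode related proteins similar to bacterial nitroreductases. FRM2 had 901 CPM in MPA + Guanine cells, 370 CPM in MPA cells, 420 CPM in Guanine cells and 80.3 CPM in DMSO cells (3.49, 2.89 to 4.14). HBN1 had 1365 CPM in MPA + Guanine cells, 418 CPM in MPA cells, 341 CPM in Guanine cells and 196 CPM in DMSO cells (2.80, 2.41 to 3.21). With the old yellow enzyme OYE2 at 1351 CPM in MPA + Guanine cells and 919 CPM in DMSO cells, the 6 genes of this list that passed had a median of 1.66 in MPA + Guanine, 1.08 in MPA and 1.5 in Guanine. The Yap1 motif TTACTAA (both strands) had no match in the FRM2 window, and was found in 3 of 5 promoters of the list (60%) and in 7.36% of the promoters of compared genes. The drug efflux list, mostly plasma membrane exporters, had a median of 1.06, with 7 of 8 genes above DMSO and 4 at least 2-fold (66% and 9.38% of all genes). FLR1, an exporter of the major facilitator family, had 818 CPM in MPA + Guanine cells, 700.5 CPM in MPA cells, 941 CPM in Guanine cells and 344 CPM in DMSO cells. PDR5, the main multidrug ABC exporter, had 254 CPM in MPA + Guanine cells, 29.2 CPM in MPA cells, 198 CPM in Guanine cells and 70.7 CPM in DMSO cells (1.84, 1.14 to 2.60). PDR3, one of its regulators, had 75.1 CPM in MPA + Guanine cells and 122 CPM in DMSO cells, but 13 of its 38 DMSO UMIs came from 1 cell. Its log2 ratio ranged from -1.16 to 0.25 over the alternative scalings and choices of cells.

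The Pdr1/3 element TCCGCGGA, the same on both strands, occurs in the PDR5 window chrXV:619440-619739 on the plus strand, 313 bases before the start codon.
PDR5: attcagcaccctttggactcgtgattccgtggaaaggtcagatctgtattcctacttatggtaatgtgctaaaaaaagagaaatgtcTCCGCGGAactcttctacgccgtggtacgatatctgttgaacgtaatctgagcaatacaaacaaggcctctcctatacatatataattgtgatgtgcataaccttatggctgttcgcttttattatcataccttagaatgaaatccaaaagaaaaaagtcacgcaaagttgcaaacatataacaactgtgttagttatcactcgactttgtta
It was found in 2 of the 8 efflux promoters (25%) and in 0.896% of the promoters of compared genes.

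Antioxidant genes had a median of 0.26 in MPA + Guanine and 0.73 in MPA, and the first was -0.023 with TMM scaling. AHP1, a peroxiredoxin, had 16622 CPM in MPA + Guanine cells, 22610 CPM in MPA cells and 13875 CPM in DMSO cells, a ratio of 0.26 with CPM that was -0.023 with TMM scaling. TRX2, a cytosolic thioredoxin, had 4021 CPM in MPA + Guanine cells, 4495 CPM in MPA cells and 1812 CPM in DMSO cells, a ratio of 1.15. MXR1, which reduces oxidized methionine, had 675 CPM in MPA + Guanine cells, 409 CPM in MPA cells and 151 CPM in DMSO cells (2.16, 1.69 to 2.65). SOD1, the copper-zinc superoxide dismutase, had 4414 CPM in MPA + Guanine cells, 7180 CPM in MPA cells and 4839 CPM in DMSO cells.

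In carbon metabolism most glycolysis genes lay at or below the DMSO level. HXT1, HXT2 and HXT3 of hexose transport and MPC2 and MPC3 of pyruvate import into mitochondria lay above it. Glycolysis genes had a median of -0.046, which is 0.30 below that of all genes, with 7 of 11 lower and 8 of 11 within 1.5-fold (34% and 61.7% of all genes). TDH2, a glyceraldehyde phosphate dehydrogenase gene, was the lowest, with 2105 CPM in MPA + Guanine cells and 3403 CPM in DMSO cells, and FBA1 (aldolase) had 5014 CPM in MPA + Guanine cells and 6973 CPM in DMSO cells. TDH3, the main glyceraldehyde phosphate dehydrogenase, had 22237 CPM in MPA + Guanine cells, 24186 CPM in MPA cells and 21260 CPM in DMSO cells. TDH1, the stress-induced isoform, had 164 CPM in MPA + Guanine cells and 41.8 CPM in DMSO cells (1.98, 1.06 to 2.99). Of 10 genes of the hexose transport list in the matrix only 3 passed, HXT1, HXT2 and HXT3. All 3 were above DMSO in MPA + Guanine cells (66% of all genes) and below it in MPA cells. HXT3 had 904 CPM in MPA + Guanine cells, 233 CPM in MPA cells, 955 CPM in Guanine cells and 514 CPM in DMSO cells. In fermentation the ethanol branch was lower, with ADH1 (alcohol dehydrogenase) at 4114 CPM in MPA + Guanine cells and 6436 CPM in DMSO cells and PDC1 (pyruvate decarboxylase) at 5425 CPM in MPA + Guanine cells and 7590.0 CPM in DMSO cells. The acetaldehyde dehydrogenase genes of acetate formation were higher, ALD4 being at 2198 CPM in MPA + Guanine cells, 428 CPM in MPA cells and 842 CPM in DMSO cells (1.38, 1.17 to 1.60), and ALD6 at 3703 CPM in MPA + Guanine cells, 1138 CPM in MPA cells and 2188 CPM in DMSO cells.

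Genes of pyruvate entry and the TCA cycle had a median of 0.48, with 12 of 15 above DMSO, against 66% of all genes. MPC3, a subunit of the mitochondrial pyruvate carrier, had 2302 CPM in MPA + Guanine cells, 924 CPM in MPA cells and 877 CPM in DMSO cells (1.39, 1.19 to 1.60). MPC2, an alternative subunit of the same carrier, had 3281 CPM in MPA + Guanine cells, 1557 CPM in MPA cells, 5042 CPM in Guanine cells and 2175 CPM in DMSO cells. Genes of pyruvate dehydrogenase did not share this rise. Over the scalings and choices of cells the log2 ratio of PDA1 ranged from -0.22 to 0.17 and that of PDB1 from -0.61 to -0.035. Oxidative phosphorylation was nearer to DMSO, with 19 of 23 genes within 1.5-fold (61.7% of all genes) and a median of 0.12 that was -0.16 with TMM scaling. The trehalose and glycogen list summed to 958 CPM in MPA + Guanine cells, 48.6 CPM in MPA cells, 272 CPM in Guanine cells and 447 CPM in DMSO cells, with only 4 genes that passed. The MPA sum rested on 5 UMIs and counts genes listed at 0 as 0. Only 1 of the 4 genes had UMIs in MPA cells, where its log2 ratio over DMSO was 0.46. TPS2, trehalose phosphatase, had 157 CPM in MPA + Guanine cells and 35.3 CPM in DMSO cells, from 44 UMIs in MPA + Guanine cells and 11 in DMSO cells. Phosphate uptake genes had 10 of 11 above DMSO (66% of all genes) and, over 8 members, medians of 0.54 in MPA + Guanine and -0.79 in MPA. SPL2, which holds low-affinity phosphate transport down, had 740 CPM in MPA + Guanine cells, 204 CPM in MPA cells and 360 CPM in DMSO cells.

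Several lists stayed close to DMSO. All 10 core histone genes were within 1.5-fold (median -0.054), as were 14 of 16 genes of RNA polymerase II and its elongation factors (0.020) and all 15 ergosterol genes (0.095). Of all genes compared, 61.7% were within 1.5-fold. HHT2, a histone H3 gene, had 1490 CPM in MPA + Guanine cells and 1369 CPM in DMSO cells. ERG11, the lanosterol demethylase, had 529 CPM in MPA + Guanine cells and 415 CPM in DMSO cells. Cell wall genes had a median of 0.12, with CCW12, an abundant mannoprotein, at 13416 CPM in MPA + Guanine cells and 13821 CPM in DMSO cells. With TMM scaling the medians of the ergosterol and cell wall lists were below 0, at -0.19 and -0.17. The core histone median was then -0.34, and that of RNA polymerase II and its elongation factors -0.26 over 14 members. No G1/S gene passed the count rule. The list summed to 125 CPM in MPA + Guanine cells (35 UMIs) and 347 CPM in DMSO cells (108 UMIs), and these sums count genes listed at 0 as 0. Of the G2/M genes CDC5, the polo kinase, had 243 CPM in MPA + Guanine cells and 161 CPM in DMSO cells, and of the M/G1 genes, of which 2 of 4 that passed were higher and 2 lower with a median of -0.27, SIC1, a Cdk inhibitor, had 254 CPM in MPA + Guanine cells and 167 CPM in DMSO cells. DSE2, a protein specific to daughter cells, was the lowest of these, with 143 CPM in MPA + Guanine cells and 225 CPM in DMSO cells. Vitamin B6 synthesis differed between the guanine-fed libraries, SNZ1 being at 675 CPM in MPA + Guanine cells, 2842 CPM in Guanine cells and 521 CPM in DMSO cells.

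Of the 12 highest and 12 lowest ratios, several genes belong to none of these lists. RGI2, involved in respiratory energy metabolism, had 314 CPM in MPA + Guanine cells and 38.6 CPM in DMSO cells. RAD59, a recombination protein, had 372 CPM in MPA + Guanine cells, 136 CPM in MPA cells and 64.3 CPM in DMSO cells, and HSP78, a mitochondrial disaggregase, had 493 CPM in MPA + Guanine cells, 233 CPM in MPA cells and 103 CPM in DMSO cells. SEC53, the phosphomannomutase of protein glycosylation, was among the lowest, with 175 CPM in MPA + Guanine cells, 360.0 CPM in MPA cells and 479 CPM in DMSO cells (-1.45, -1.95 to -0.98). The lowest of all, PHD1, a transcription factor of pseudohyphal growth, rested on 1 cell. It had 247 CPM in MPA + Guanine cells and 1610 CPM in DMSO cells, but 451 of its 501 DMSO UMIs came from a single cell, and without cells in which 1 gene held over 10% of the UMIs its log2 ratio was 0.14. RNH202, a ribonuclease H2 subunit, had a ratio of 2.67 and was left out of the 12 highest because its UMIs lay in under 10% of cells, 64 of 86 in 1 MPA + Guanine cell.

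**Figure D4:**
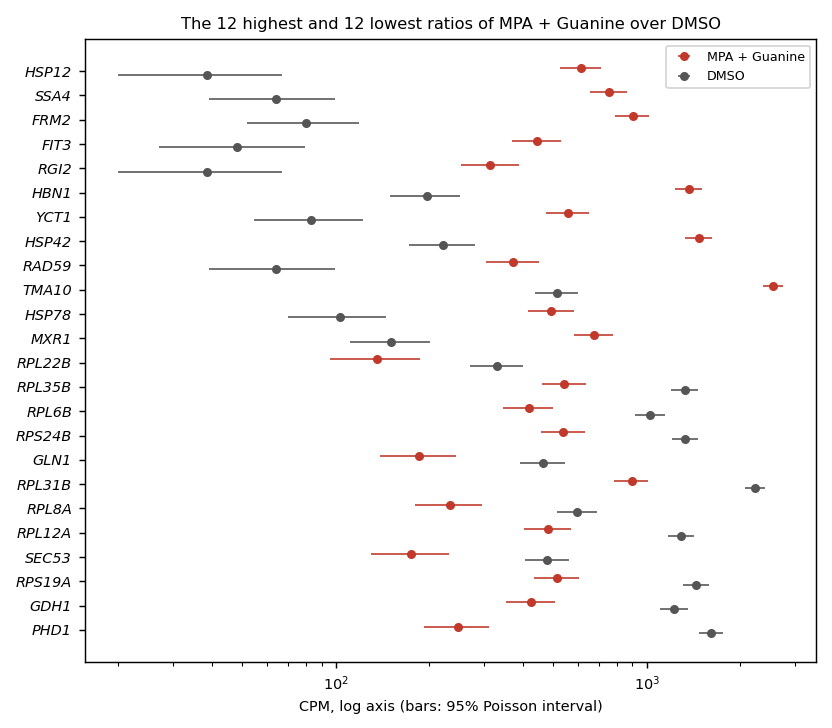
CPM on a logarithmic x axis for the genes at both ends of the ratio (12 high, 12 low) of MPA + Guanine over DMSO, with exact 95% Poisson intervals of counting error. HSP12 at the top has 615 CPM in MPA + Guanine against 38.6 CPM in DMSO, and the DMSO value of PHD1 at the bottom comes mostly from 1 cell. The genes were chosen by their ratios, so the distance between the intervals of both libraries follows from that choice.

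The deposited subclusters of the MPA + Guanine cells differed in how far they lay from DMSO. They were found from the same counts, so these values describe them only. MG.1 held 166 cells, MG.2 held 77 and MG.3 held 25, and the DMSO cells fell into DMSO.1 with 177 and DMSO.2 with 56. Ribosomal protein genes took 16.3% of UMIs in MG.1, 27.2% in MG.2 and 13.8% in MG.3, against 35.2% in DMSO.1 and 25.9% in DMSO.2, so that MG.2 and DMSO.2 overlapped in this measure. Chaperone genes summed to 24167 CPM in MG.1, 24708 CPM in MG.2 and 13804 CPM in MG.3, against 14684 CPM in DMSO.1 and 9186 CPM in DMSO.2, so that MG.3 lay between the DMSO subclusters. HSP12 was at 779 CPM in MG.1, 273 CPM in MG.2 and 122 CPM in MG.3 (2 UMIs), against 44.9 CPM in DMSO.1 and 15.2 CPM in DMSO.2. Amino acid biosynthesis differed more between subclusters than between the MPA + Guanine (14746 CPM) and DMSO (15453 CPM) libraries. It held 13510 CPM in MG.1, 19109 CPM in MG.2 and 10811 CPM in MG.3, against 12454 CPM in DMSO.1 and 26602 CPM in DMSO.2.

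MG.3 was set apart by cells dominated by 1 gene. In 15 of its 25 cells more than 10% of the UMIs fell on 1 gene, against 1 of 166 cells in MG.1 and none of 77 in MG.2, and in DMSO this was so for 7 of 56 cells of DMSO.2 and none of 177 in DMSO.1. The genes were MTC7 and the open reading frames YGR069W, YHR095W and YNL143C. YGR069W had 2463 UMIs in MPA + Guanine cells, 1847 of them in MG.3, and 8803 CPM in MPA + Guanine cells against 2471 CPM in DMSO cells. Without MG.3 its log2 ratio was -0.080 in place of 1.83. YNL143C had 11158 CPM in MPA + Guanine cells, 2636 CPM in MPA cells and 14688 CPM in DMSO cells. Without MG.3, 205 genes were at least 2-fold higher and 56 at least 2-fold lower, near the counts with it.

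How far expression returned toward DMSO depended on the gene group. Of 28 lists with at least 5 members measured in MPA cells as well, the median lay within 1.5-fold of DMSO for 20 lists in MPA + Guanine, 22 in MPA and 23 in Guanine. The lists above 1.5-fold were 6 in MPA + Guanine and 4 in MPA, and those below were 2 in each. These calls depended on scaling. With each library scaled against DMSO by TMM, an alternative chosen after seeing the data, 18 lists were within 1.5-fold in MPA + Guanine, 25 in MPA and 22 in Guanine, and in MPA + Guanine 3 were above and 7 below. The calls that follow are for CPM. Biogenesis factors, tRNA synthetases and antioxidant genes lay within 1.5-fold in MPA + Guanine and above it or close to it in MPA, with medians of -0.47, -0.12 and 0.25 in MPA + Guanine and of 0.62, 0.58 and 0.73 in MPA. With TMM scaling the biogenesis median was -0.75 in MPA + Guanine, below 1.5-fold, and 0.41 in MPA, within it. The other lists named were then within 1.5-fold in both libraries. Medians of tRNA synthetases were -0.40 in MPA + Guanine and 0.38 in MPA, and those of antioxidant genes -0.031 in MPA + Guanine and 0.52 in MPA. Chaperones lay outside in both libraries, at 0.84 in MPA + Guanine and 0.72 in MPA, and within 1.5-fold in both with TMM scaling, at 0.55 in MPA + Guanine and 0.51 in MPA. Ribosomal proteins, sulfur genes, drug efflux, iron uptake and pyruvate entry lay outside 1.5-fold in MPA + Guanine and within it in MPA, although with TMM scaling iron uptake (0.42) and pyruvate entry (0.31) lay within it in MPA + Guanine too. The call for pyruvate entry was marginal. Its MPA + Guanine median was 0.593 over the 11 members with UMIs in MPA cells, against a limit of 0.585, and 0.48 over all 15 that passed. Phosphate uptake and fermentation were within 1.5-fold in MPA + Guanine (0.54 and 0.19) and below DMSO in MPA (-0.79 and -0.60).

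**Figure D5:**
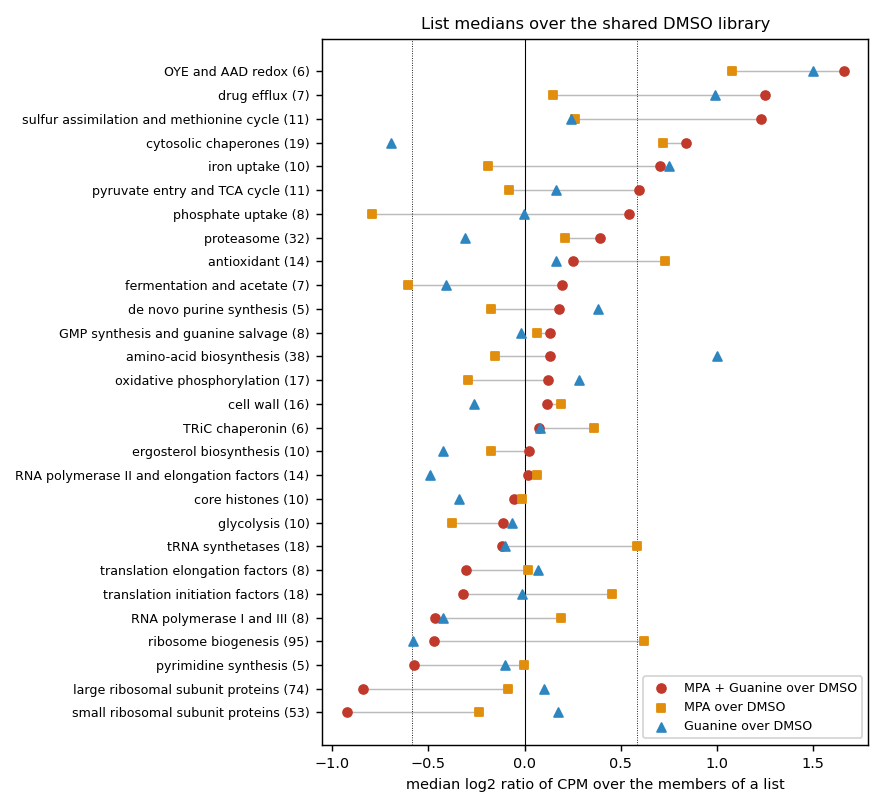
Each row is 1 of the 28 lists with its number of members, and the x axis gives the median log2 ratio of CPM over DMSO in MPA + Guanine and MPA over the same members and in Guanine over those with UMIs there; the dotted lines mark 1.5-fold. Ribosome biogenesis moves between -0.47 and 0.62 across the zero line, chaperones stay on one side at 0.84 and 0.72, and ribosomal proteins lie lowest in MPA + Guanine.

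The spread of ratios over DMSO was not smaller in MPA + Guanine than in MPA over the genes with UMIs in all 4 libraries. This set leaves out genes listed at 0 in MPA or Guanine cells. In MPA cells 2356 of 4777 genes were listed at 0, against 872 in MPA + Guanine cells, and how this changes the MPA spread was not tested. Under the same count rule 88 of 1322 genes (6.66%) were at least 2-fold higher and 55 (4.16%) at least 2-fold lower in MPA than in DMSO, and 157 of 1678 (9.36%) higher and 77 (4.59%) lower in Guanine, with fewer UMIs in both of these libraries. Over the 1515 genes of the comparison with UMIs in all 4 libraries, 61.8% lay within 1.5-fold of DMSO in MPA + Guanine, 66.6% in MPA and 67.5% in Guanine. With the part that counting error gives removed, the SD of the log2 ratios was 0.62 in MPA + Guanine, 0.50 in MPA and 0.59 in Guanine. Over the 344 genes with at least 50 UMIs in each library these shares were 49.1% in MPA + Guanine, 70.6% in MPA and 75.3% in Guanine. Without ribosomal protein genes, 225 genes remained and the order of MPA + Guanine and MPA turned, with 69.8% within 1.5-fold in MPA + Guanine, 61.8% in MPA and 63.6% in Guanine, and SDs of 0.56 in MPA + Guanine, 0.57 in MPA and 0.57 in Guanine. With TMM scaling the shares over the 344 genes were 45.6% in MPA + Guanine and 71.2% in MPA, and over the 225 genes 69.8% in MPA + Guanine and 67.6% in MPA. By this measure MPA + Guanine cells were farther from DMSO than MPA cells when ribosomal protein genes were counted. Over the 225 genes without them this was not so, and the 1515 genes were not examined without ribosomal protein genes. The median log2 ratio of the 225 genes was 0.10 in MPA + Guanine and 0.32 in MPA. How the minimum of 50 UMIs in each library shaped this set was not tested.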

How the data were processed

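Per the study's methods, the authors used Trimmomatic to trim reads, STAR to align them (build R64-1-1), UMI-tools to make the UMI count matrix and scater to filter outlying cells. The deposited values are these raw counts, without normalization, in 1 matrix for all libraries, and the condition and subcluster of each cell are the authors' labels. The strand of the counting and its treatment of multi-mapped reads are not given in the sources used here, so genes that overlap others or have near-identical copies are uncertain. No doublets were removed here.

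CPM were taken from library sums of UMIs, and log2 ratios were taken without a pseudocount for genes with UMIs in both libraries and at least 50 together. Intervals are exact (Poisson for CPM, Clopper-Pearson for ratios and shares), for 95% coverage, and hold only the error of counting. Named genes were the 12 highest and 12 lowest ratios (at least 100 UMIs, and UMIs in at least 10% of the cells of the higher library), the GMP genes, in each list the 3 with the most UMIs and the highest and lowest ratio, genes over 10% of a cell, and the 5 largest at 0 in either library; RNH202 was added after its value was seen. The members and the 39 lists were chosen with earlier results of these data known. In the matrix 4606 of 4777 genes matched RefSeq loci, 2011 of them among the 2048 compared. Alternatives changed the scaling (TMM, also for MPA and Guanine as an alternative chosen after seeing the data, totals without ribosomal protein genes, mean of each cell's CPM), the cells, the minimum count and the fold. Ratio steps were tested on simulated data. Python 3.11.15 with numpy 2.4.6, scipy 1.17.1 and pandas 2.3.3, edgeR 4.0.16 in R 4.3.3 and blastn 2.17.0+ were used.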

Additional observations from a re-analysis of the deposited data

Results flagged for a closer look

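The genes below had at least 50 UMIs in MPA + Guanine cells and were listed at 0 in DMSO cells, so that they stood outside the comparison of ratios. IMD2, an IMP dehydrogenase gene, had 91 UMIs in 67 MPA + Guanine cells, with 4 at most in 1 cell. ALG1, a mannosyltransferase of protein glycosylation, had 54 UMIs in 44 cells, and SWR1, the ATPase of a chromatin remodeler, had 51 UMIs in 40 cells. PSY3, a recombination protein, had 80 UMIs, of which 58 came from 1 cell, and AFI1, involved in polar cell growth, had 78 UMIs, of which 71 came from 1 cell. In MPA cells the same genes had 3 (IMD2), 7 (ALG1), 16 (SWR1) and 5 (PSY3) UMIs and AFI1 was listed at 0. Since the libraries seem filtered gene by gene, the 0 in DMSO is no measure of absence.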

How the results depend on the processing

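No paired analysis was possible because each condition is 1 library, and for the same reason no replicate could be left out. The direction of the main lists held under all 12 alternatives of scaling, cells and minimum count, with medians of -1.21 to -0.86 (small ribosomal subunit), -1.18 to -0.81 (large subunit), -0.75 to -0.40 (ribosome biogenesis), 0.52 to 0.87 (chaperones), 0.79 to 2.02 (general stress), 0.59 to 1.48 (sulfur) and 0.53 to 1.34 (iron uptake). The counts depended on scaling and depth. With TMM scaling 94 genes were at least 2-fold higher, 177 at least 2-fold lower and the median of all genes was -0.030, and with totals without ribosomal protein genes 97, 177 and -0.027. With cells thinned to 400 UMIs (13 MPA + Guanine and 4 DMSO cells left out, 707 genes compared), 67 were higher, 390 within 1.5-fold, the median was 0.051 and the SD without counting error 0.75. For MG.1 over DMSO.1 there were 299 higher, 134 lower and 786 within 1.5-fold, a median of 0.37 and an SD of 0.80. A minimum of 20 UMIs gave 307 higher, a minimum of 100 gave 89 higher and 645 within 1.5-fold, and 50 UMIs in each library gave 49 higher, 39 lower, 579 within 1.5-fold and a median of 0.15. At 1.5-fold in place of 2-fold 549 were higher and 235 lower. Fewer genes pass a stricter minimum by construction, and the cause of the other shifts was not tested.

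With TMM scaling of each library against DMSO, chosen after seeing the data, the list medians above 1.5-fold in MPA were 1 in place of 4, and in MPA + Guanine 3 in place of 6 above and 7 in place of 2 below. Lists near 0 changed sign with scaling. The values with TMM and with totals without ribosomal protein genes were -0.13 and -0.13 for the median and -0.10 and -0.10 for the sum of the GMP list, -0.10 and -0.10 for the de novo purine median, -0.16 and -0.16 for the amino acid median, -0.023 and -0.020 for the antioxidant median, -0.032 and -0.030 for its sum, -0.025 and -0.022 for the fermentation median, -0.16 and -0.16 for the oxidative phosphorylation median, -0.10 and -0.10 for its sum, -0.17 and -0.17 for the ergosterol sum, -0.17 and -0.16 for the cell wall median, -0.19 and -0.19 for its sum, -0.023 and -0.020 for AHP1, and -0.22 and -0.22 for TDH3. With thinned cells the fermentation median was -0.039, the MATa-specific median -0.026 and RPL15B -0.36. Without cells in which 1 gene held over 10% of the UMIs (16 MPA + Guanine and 7 DMSO cells) PHD1 was 0.14 and MTC7 -0.047. Without MG.3 MTC7 was -0.77, YGR069W -0.080 and YHR095W -2.72. For MG.1 over DMSO.1 the amino acid sum was 0.12, PHD1 0.67, TDH3 -0.055, MTC7 -0.16 and YNL143C 0.46. The de novo purine median was -0.0076 at a minimum of 20 UMIs and -0.55 at 100, the M/G1 median 0.082 at 100 and 0.34 at 50 in each library, and the fermentation median -0.072 at 50 in each library. A gene near the minimum of 50 UMIs has a wide counting interval, as for GCV1 (0.63 to 2.28), so single low genes were not resolvable beyond such a range.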

Other observations

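The reverse case, genes listed at 0 in MPA + Guanine cells, was led by RPS14B, a small subunit protein gene, with 93 UMIs in 74 DMSO cells and 43 UMIs in MPA cells. HAS1, an RNA helicase of ribosome biogenesis, had 63 UMIs in DMSO cells and 26 in MPA cells, and ZRC1, a vacuolar zinc transporter, had 53 UMIs in DMSO cells and was listed at 0 in MPA cells. TIF2, which shares nearly all of its sequence with TIF1, and YDR209C, of which 228 of 414 bases are identical to CPP2, had 49 UMIs each in DMSO cells.

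Of the 192 genes at least 2-fold higher in MPA + Guanine cells 45 were in any of the 39 lists, against 46 of the 59 that were at least 2-fold lower and 615 of all 2048.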
